A study of Mus musculus with 4 samples.

Results

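The subunits of the N-methyl-D-aspartate (NMDA) receptor were examined in the brain of 1-day-old mice after prenatal exposure to titanium dioxide nanoparticles (TiO2-NP). All array probes whose RefSeq transcript accession belonged to Grin1, Grin2a, Grin2b, Grin2c, Grin2d, Grin3a or Grin3b were read, which gave 10 probes of the 7 genes. The array carried 55681 different probes, and 20660 genes could be named on it. Grin1, Grin2a and Grin2b had 2 probes each, called here the brighter and the dimmer probe by their mean signal, and the other genes had 1. The family was selected on the basis of a measured value, the higher signal of Grin2b on both arrays of exposed pools, so the values of Grin2b by exposure are a description and were given no test.

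The mice were of the C57BL/6J strain. Dams of the Sham groups received the vehicle, from which the particles had been removed, and dams of the TiO2-H groups received 100 µg TiO2-NP per mouse in 25 µL into the trachea. The day of exposure is given as gestational day 10.5 in the protocol and as day 14 in the sample descriptions. Total RNA of whole brain at postnatal day 1 was pooled within each exposure and sex, with 2 pups taken per litter from 5 Sham or 6 TiO2-H dams, and each of the 4 pools was hybridized to 1 one-color array. No group had a replicate, and the 2 TiO2-H arrays were compared with the 2 Sham arrays only across the sex labels, so that p-values measure the spread between pools of different sex label.

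All 4 arrays lay on 1 slide, the Sham arrays in one row and the TiO2-H arrays in the other, so row and exposure cannot be told apart. The processed signal had a 75th percentile between 795 and 871 on the 4 arrays, and between 56.2% and 61.2% of the spots were well above background. For sex-linked RNAs, 6 of 6 measured probes went against the sex labels of the TiO2-H arrays, and the Sham female pool also gave Y-linked signal, with an Eif2s3y signal of 419. The exposed pools are therefore called the arrays labelled TiO2-H male or TiO2-H female, and each subunit was also compared with the pairs crossed. The tissue label was met by its markers: 7 of 7 neuron markers were well above background on all arrays, and Sftpc of the lung was on none. Of the 2 liver markers, Alb was on none and Apoa2 on all 4. Of the 3 muscle markers, Acta1 and Myh3 were on all 4 and Ckm on the Sham female array only, with a processed signal of 54.8. Of the 4 pituitary markers, Prl and Pou1f1 were on none, Pomc was on all 4, and Gh was on the array labelled TiO2-H male only, where its processed signal was 301 against 4.76 to 11.2 on the others.

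The NMDA receptor is a channel for calcium and sodium that opens when glutamate and a co-agonist, glycine or D-serine, are bound while the membrane is depolarized. It is built around the subunit encoded by Grin1, which binds the co-agonist, together with the glutamate-binding subunits encoded by Grin2a to Grin2d or the glycine-binding subunits encoded by Grin3a and Grin3b. In rodent brain Grin2b and Grin2d are the GluN2 genes known for expression before and around birth, whereas Grin2a and, in the cerebellum, Grin2c are known to increase later.

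Since the study asked about CpG methylation together with mRNA, the promoter sequences of the family are shown first. RefSeq windows of 300 bases (GRCm38.p6, from 250 before to 50 after the start) were at hand for 4 of the 7 genes, Grin1, Grin2c, Grin2d and Grin3b. Those below run 5′ to 3′ on the strand of the gene, with each CG dinucleotide in capitals, and show the range within the family. They belong to the obligatory subunit Grin1 (chr2:25319138-25319437, minus strand), to Grin2c (chr11:115267194-115267493, minus strand) and to Grin3b (chr10:79970474-79970773, plus strand).
Grin1: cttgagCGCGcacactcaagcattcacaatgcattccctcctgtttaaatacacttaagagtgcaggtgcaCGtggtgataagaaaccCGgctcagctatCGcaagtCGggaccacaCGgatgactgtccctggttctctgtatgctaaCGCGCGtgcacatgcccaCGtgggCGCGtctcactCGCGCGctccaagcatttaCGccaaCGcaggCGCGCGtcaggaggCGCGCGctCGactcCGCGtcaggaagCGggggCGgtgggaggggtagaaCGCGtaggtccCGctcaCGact
Grin2c: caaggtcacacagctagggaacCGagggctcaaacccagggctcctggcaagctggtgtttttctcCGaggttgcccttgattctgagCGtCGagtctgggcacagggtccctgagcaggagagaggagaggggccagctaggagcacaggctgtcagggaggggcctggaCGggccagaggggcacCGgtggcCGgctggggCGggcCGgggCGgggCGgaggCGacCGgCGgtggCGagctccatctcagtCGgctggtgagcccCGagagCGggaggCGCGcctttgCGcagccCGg
Grin3b: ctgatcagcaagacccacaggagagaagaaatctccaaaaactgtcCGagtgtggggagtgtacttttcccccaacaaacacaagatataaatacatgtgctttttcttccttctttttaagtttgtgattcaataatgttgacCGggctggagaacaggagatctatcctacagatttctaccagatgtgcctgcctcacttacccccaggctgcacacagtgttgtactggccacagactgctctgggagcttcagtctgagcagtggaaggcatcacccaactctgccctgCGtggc
The Grin1 window held 33 CG, more than 91.4% of the 32851 promoter windows of the same length, and the Grin2c window 22, more than 76.9%. The Grin2d window held 12 CG, and the Grin3b window held 3, against a median of 7 over all windows. The letters GGGCGG, the core of the motif of Sp-type factors, were found on either strand once in the Grin1 window, at 3 places in the Grin2c window, of which 2 share a base, and not in the other 2, and 35.7% of all windows held them. These are properties of the reference sequence, and no methylation was measured in the data described here.

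All 10 probes were well above background on all 4 arrays, with no saturated spot and no spot marked as an outlier. Signals are given as a percentage of the 75th percentile of the same array, which allows arrays but not probes to be compared. On this scale 1 of the 10 probes reached 1.5-fold on the arrays labelled male and 1 on those labelled female, the brighter Grin2b probe in both cases, beside 4.08% and 2.65% of all probes compared. One probe, the dimmer probe of Grin1, was at or below 0.67-fold on the arrays labelled female, where 3.31% of all probes were, and no member probe was on the arrays labelled male, where 3.28% were. Only the brighter Grin2b probe reached 1.5-fold on both pairs, as did 0.315% of all probes. With the pairs crossed, it was again the 1 member probe at or above 1.5-fold. The shares of all probes were 3.13% for TiO2-H female over Sham male and 3.51% for TiO2-H male over Sham female. These counts of TiO2-H over Sham rest on the gene by which the family was chosen and are a description only. None of the 8 probes of the other genes reached 1.5-fold on either pair, as labelled or crossed. At or below 0.67-fold, 0 member probes were found in the first (3.62% of all) and 1, the dimmer Grin1 probe, in the second (2.92%). Between the sex labels of one exposure, 1 member probe, again Grin1 dimmer, was at or above 1.5-fold in Sham (3.17% of all, with 3.15% at or below 0.67-fold), and no member probe passed either threshold in TiO2-H (2.05% above and 4.16% below). Both TiO2-H arrays were above both Sham arrays for 5 of the 10 probes, those of Grin2b, Grin2c, Grin2d and Grin3a, and below them for 0, while the same held for 26.3% (above) and 26.9% (below) of the 35618 probes tested, and for 28.9% and 25.8% of the 29393 probes that every array measured well above background. The 2 Grin2b probes are among these 5 because of the choice of the family, and without them it was 3 of 8 probes, which is read against the same shares. The median log2 difference, TiO2-H mean minus Sham mean, was 0.10 over the 8 probes other than those of Grin2b and 0.00063 over all probes.

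**Figure D1:**
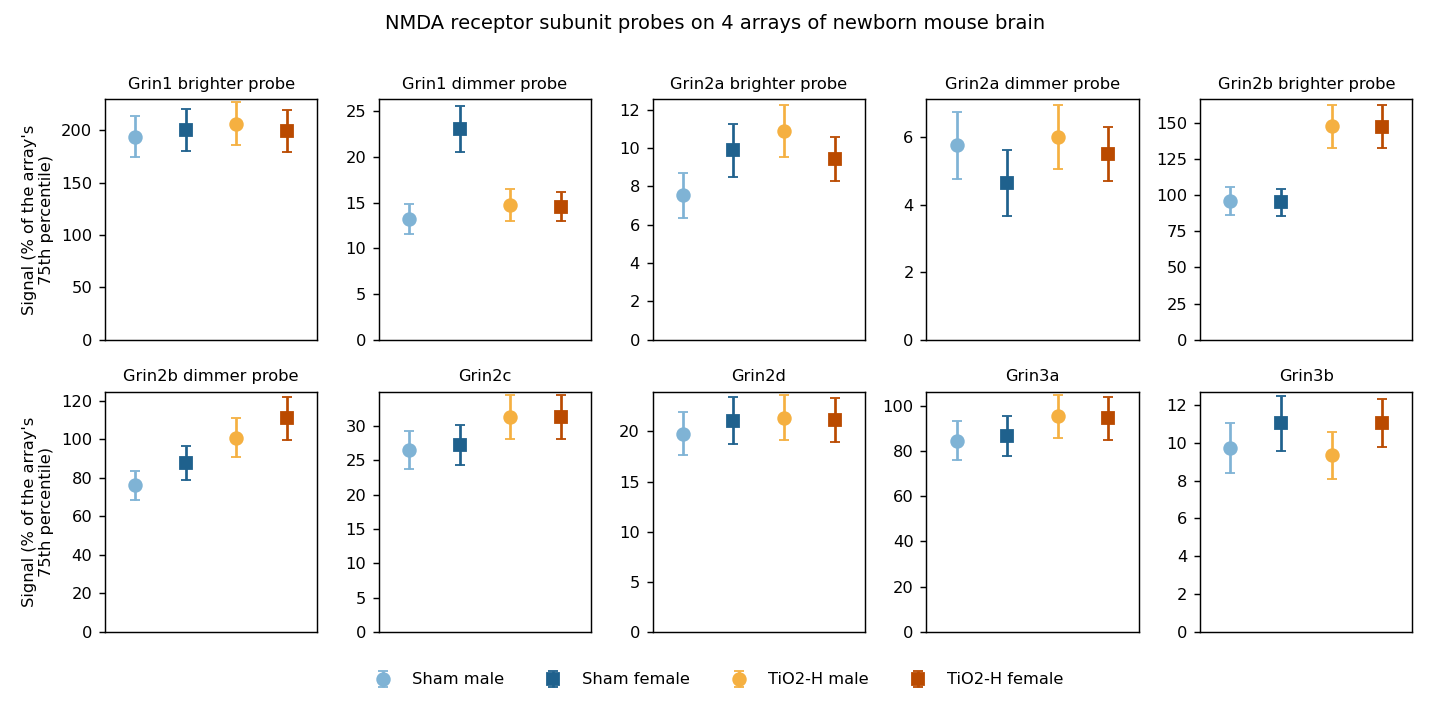
Signal of each NMDA receptor subunit probe on the 4 arrays, as a percentage of the 75th percentile of the same array (vertical axis, from 0, a different scale in each panel); circles are pools labelled male, squares pools labelled female, blue Sham and orange TiO2-H, and bars the error that the scanner software gives for 1 spot. The brighter Grin2b probe lay at 94.9% and 96.0% on the Sham arrays and at 147% on both TiO2-H arrays, whereas the dimmer Grin1 probe stood apart on the Sham female array alone, at 23.1%.

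Grin2b encodes the GluN2B subunit, which gives receptors with slow decay and is known as a main GluN2 subunit of immature forebrain. Its brighter probe (transcript NM_008171) gave 96.0% of the 75th percentile for Sham male, 94.9% for Sham female, 147% for the array labelled TiO2-H male and 147% for that labelled TiO2-H female. The arrays of one exposure lay close together, with a log2 difference between the sex labels of -0.016 in Sham and -0.0014 in TiO2-H, and the lowest TiO2-H array exceeded the highest Sham array by 0.62. The fold of TiO2-H over Sham was 1.54 for the pair labelled male and 1.55 for the pair labelled female, or 1.53 and 1.55 with the pairs crossed. In the processed signal before scaling these were 778, 755, 1278 and 1282 in the same order.

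The dimmer probe of Grin2b, annotated to the same transcript, gave 76.1% for Sham male, 87.6% for Sham female, 101% for TiO2-H male and 111% for TiO2-H female. Both TiO2-H arrays were again above both Sham arrays, but the fold, 1.33 and 1.27, did not reach 1.5 on either pair, so that the probes of the gene fell on the 2 sides of the threshold. The gap between the lowest TiO2-H and the highest Sham array was 0.20 in log2, as large as the difference between the 2 Sham arrays (0.20). The brighter probe exceeded the dimmer one in log2 ratio by 0.21 on the arrays labelled male and by 0.29 on those labelled female, and the scanner error of a single log2 ratio was 0.20 for both. The mean log2 difference of TiO2-H minus Sham was 0.63 for the brighter and 0.37 for the dimmer probe. No standard error is given, since the gene was chosen on this contrast. With the normexp background correction, the brighter probe was still higher on both TiO2-H arrays but did not reach 1.5-fold on the arrays labelled male (log2 ratio 0.52).

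**Figure D2:**
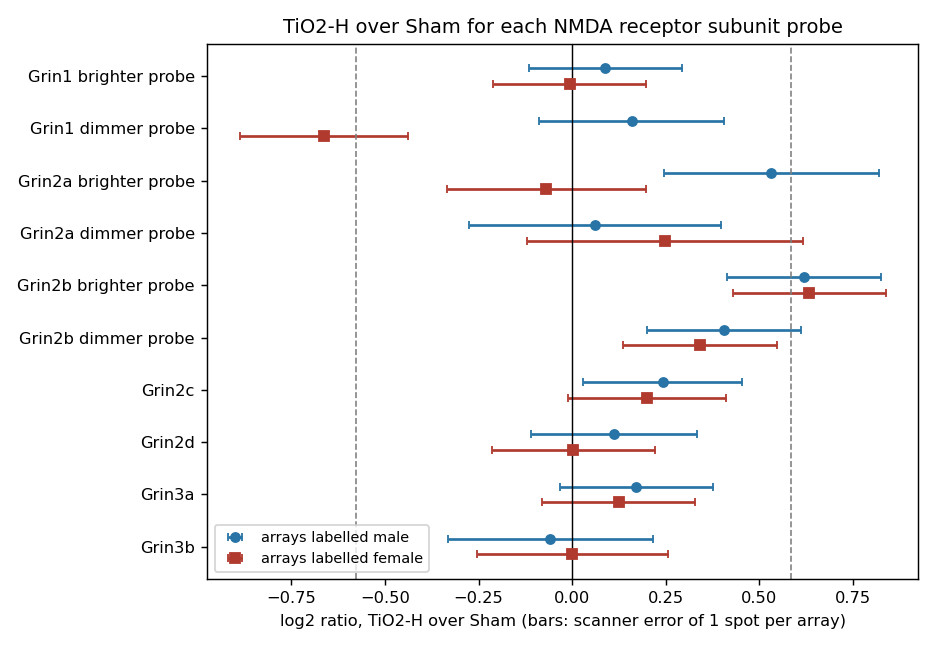
Log2 ratio of TiO2-H over Sham (horizontal axis) for each subunit probe; blue circles are the arrays labelled male, red squares the arrays labelled female, bars the scanner error of the ratio of 2 single spots, and dashed lines 1.5-fold and 0.67-fold. The brighter Grin2b probe lies beyond 1.5-fold on both pairs (0.62 and 0.63), the dimmer Grin2b probe is above 0 but short of it, and Grin1 dimmer and Grin2a brighter differ between the pairs.

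The obligatory subunit gave no such difference on its brighter probe. This Grin1 probe (NM_001177656) gave 194% for Sham male, 200% for Sham female, 206% for TiO2-H male and 199% for TiO2-H female, so that the arrays of the exposures overlapped. The mean log2 difference was 0.041 (limma SE 0.048, limma adjusted p = 0.693). The dimmer Grin1 probe (NM_008169) gave 13.2%, 23.1%, 14.8% and 14.6% in the same order, with the Sham female array 1.74-fold above the Sham male array and above both TiO2-H arrays. Its ratio was therefore 1.12-fold for the pair labelled male and 0.632-fold for the pair labelled female, and the mean log2 difference of -0.25 (SE 0.32; limma adjusted p = 0.712) turned to 0.15 without the Sham female array and was -0.65 without the Sham male array. The 2 probes are annotated to different transcripts of the gene, and which exons they match was not analysed here.

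Since each array scales all its probes together, the ratio of a subunit to Grin1 within an array does not depend on the scaling. Relative to the brighter Grin1 probe, the brighter Grin2b probe was higher in TiO2-H by 0.53 (labelled male) and 0.64 (labelled female) in log2, a mean of 0.59, and the dimmer Grin2b probe by 0.32 and 0.35, a mean of 0.33. The same change was 0.15 and 0.21 for Grin2c, 0.084 and 0.13 for Grin3a, and 0.024 and 0.010 for Grin2d. For the remaining probes it differed in sign between the pairs. It was 0.071 and -0.66 for the dimmer Grin1 probe, and -0.15 and 0.0073 for Grin3b. For Grin2a it was 0.44 and -0.062 on the brighter probe and -0.026 and 0.25 on the dimmer probe. A change of such a ratio would mean that the 2 signals changed unequally, and not which of them did. The Grin2b values are a description only, since the gene was chosen on this contrast. For the other members unequal change was not tested. The scanner error of a log2 ratio of the brighter Grin1 probe alone was 0.20, more than the changes of Grin3a and Grin2d.

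Grin2a encodes GluN2A, the subunit of receptors with faster decay that are known to appear as synapses mature, and both its probes (NM_008170) were dim. The brighter probe gave 7.53% for Sham male, 9.88% for Sham female, 10.9% for TiO2-H male and 9.42% for TiO2-H female. The Sham female array lay between the TiO2-H arrays, and the log2 ratio was 0.53 on the arrays labelled male and -0.069 on those labelled female. With the normexp correction the first of these was 0.051. The dimmer probe gave 5.76%, 4.64%, 6.01% and 5.51%, with a log2 ratio of 0.062 and 0.25, within its scanner error of 0.34 and 0.37. The mean differences of 0.23 (SE 0.18; limma adjusted p = 0.56) and 0.15 (SE 0.14; limma adjusted p = 0.607) were not beyond the spread between pools.

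Grin2c encodes GluN2C, a subunit known from cerebellar granule cells and astrocytes of the adult. Its probe (NM_010350) gave 26.4% for Sham male, 27.2% for Sham female, 31.2% for TiO2-H male and 31.3% for TiO2-H female. The arrays did not overlap by exposure, and the fold was 1.18 and 1.15 on the pairs labelled male and female. The log2 difference was 0.22 (SE 0.044; limma adjusted p = 0.351), and the scanner error of each of its log2 ratios was 0.21.

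Grin2d encodes GluN2D, known from the brainstem, diencephalon and interneurons of the young brain. Its probe (NM_008172) gave 19.8% for Sham male, 21.1% for Sham female, 21.4% for TiO2-H male and 21.1% for TiO2-H female. Both TiO2-H arrays were above both Sham arrays by a log2 gap of only 0.0035, and the difference was 0.058 (SE 0.054; limma adjusted p = 0.624).

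The GluN3 subunits are known to lower the calcium permeability of the receptor, and Grin3a is known for its expression in the early postnatal brain. Grin3a (NM_001033351) gave 84.6% for Sham male, 86.7% for Sham female, 95.3% for TiO2-H male and 94.5% for TiO2-H female. These arrays did not overlap by exposure either, with a log2 gap of 0.12, and the fold of the means was 1.11 (log2 difference 0.15, SE 0.043; limma adjusted p = 0.351). Grin3b (NM_130455), known mainly from motor neurons, gave 9.71%, 11.0%, 9.33% and 11.0% in the same order, with overlapping arrays and a log2 difference of -0.029 (SE 0.12; limma adjusted p = 0.917).

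No probe passed an adjusted p of 0.05 in limma on the 2 TiO2-H against the 2 Sham arrays (0 of 35618, or 0%), while 13.9% had an unadjusted p under 0.05, and the lowest adjusted p of any probe was 0.311. The adjusted p of the members other than Grin2b was between 0.351 and 0.917. An exact two-sided permutation test of 2 against 2 arrays cannot go below 0.33, so none was made for single probes. For scale, the robust SD of the log2 ratio over the 29393 probes well above background on all arrays was 0.153 (labelled male) and 0.155 (labelled female) for TiO2-H over Sham, and 0.102 and 0.098 for the 2 sex labels within Sham and within TiO2-H. In whole brain, more cells of a type and more RNA per cell cannot be told apart.

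**Figure D3:**
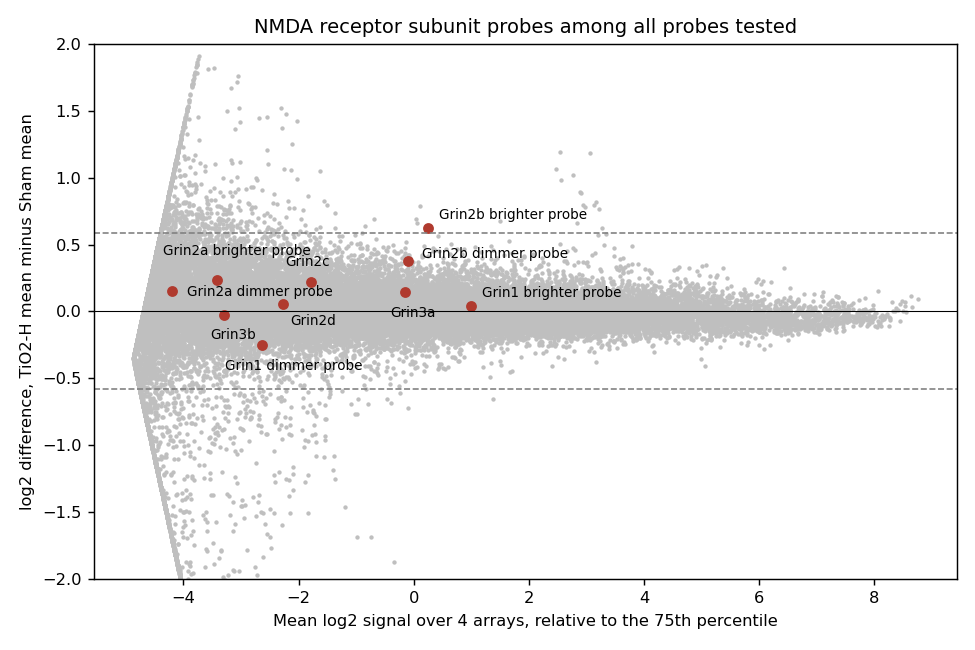
Mean log2 signal over the 4 arrays relative to the 75th percentile (horizontal axis) against the log2 difference of the TiO2-H mean minus the Sham mean (vertical axis) for the 35618 probes tested (grey) and the 10 subunit probes (red); dashed lines mark 1.5-fold and 0.67-fold, and 216 probes lie outside the vertical axis. The brighter Grin2b probe is the only subunit probe beyond a dashed line (0.63), and the scatter of all probes widens toward dim signals, where the Grin2a and Grin3b probes lie.

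Markers of cell types were summed on each array, and none of the marker genes passed an adjusted p of 0.05. The summed signal of 7 neuron markers was 375 and 379 times the 75th percentile in Sham and 375 and 392 times in TiO2-H. The brightest of them, Stmn2 and Tubb3, weigh most in such a sum. The median log2 ratio of the 7 was 0.082 and 0.14 on the pairs labelled male and female, with single genes from -0.061 to 0.21. The sum of 4 endothelial markers, all well above background on all arrays, was 7.92 and 7.64 in Sham against 8.82 and 8.82 in TiO2-H. Its log2 change was 0.16 and 0.21 on the pairs labelled male and female. The erythroid sum was lower in TiO2-H, at 62.5 and 60.0 against 51.4 and 51.7, with 2 of the 4 listed genes well above background on all arrays. The cerebellar granule cell list, which bears on Grin2c, had 3 of 5 genes well above background on all arrays, Gabra6 and Cbln3 on none, and summed to between 38.4 and 39.4 on the 4 arrays. The astrocyte and radial glia list, which also bears on Grin2c, summed to 141 and 132 in Sham against 145 and 147 in TiO2-H. Its log2 change was 0.046 and 0.16 on the pairs labelled male and female, with single genes from -0.16 to 0.27. In the same order, the sum changed by 0.079 and 0.14 for microglia and 0.055 and 0.11 for the oligodendrocyte lineage. For the choroid plexus it changed by -0.083 and -0.020. The pituitary sum of 4 genes was 0.737 and 0.744 in Sham, 1.47 on the array labelled TiO2-H male and 0.696 on that labelled TiO2-H female, so that 1 TiO2-H pool stood apart, with Gh 9.25-fold and Pomc 1.56-fold on the pair labelled male. Without that array, the mean log2 difference was 0.63 for the brighter and 0.44 for the dimmer Grin2b probe, 0.22 for Grin2c, 0.049 for Grin2d and 0.14 for Grin3a. It was 0.016 and -0.26 for the brighter and dimmer Grin1 probes, 0.13 and 0.092 for those of Grin2a, and 0.092 for Grin3b. The part of the other marker lists in the subunit values was not tested.

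The genes that supply, anchor and transmit for the receptor were read next, each by its brightest probe. Of 53 partner genes in 6 lists, 51 were measured on the arrays labelled male and 50 on those labelled female. By that probe none reached 1.5-fold or 0.67-fold on either pair, and other probes of these genes were not read. The study lists Rasgrf2, a signalling gene here, among the mRNAs decreased in male offspring with increased CpG methylation. Its brightest probe of 2 gave 1.13-fold and 1.02-fold here on the pairs labelled male and female. Both TiO2-H arrays were above both Sham arrays for 17 of the 51 genes and below them for 9, beside 26.3% and 26.9% of all probes, and the median log2 difference was 0.034. The same shares of all probes stand beside each count of non-overlapping genes by list given next, and with 6 to 15 measured genes a list no count is read as more than a description. None passed an adjusted p of 0.05.

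Among the scaffold proteins, which hold the receptor in the postsynaptic density, the median log2 difference of the 14 genes was 0.076, with 6 non-overlapping higher and 2 lower. Dlg4, which encodes the scaffold PSD-95 that binds the tails of GluN2 subunits, gave processed signals of 2125 and 2128 in Sham and 2143 and 2208 in TiO2-H. After scaling this was a log2 ratio of -0.086 for the pair labelled male and -0.078 for the pair labelled female (limma adjusted p = 0.458). Shank2, a deeper scaffold of the same density, had the lowest mean difference of all partners and is named for that, after its values were seen. Its processed signal was 55.9 and 65.7 in Sham and 42.2 and 53.7 in TiO2-H, with log2 ratios of -0.50 and -0.42 (limma adjusted p = 0.375). With quantile normalization its ratio on the arrays labelled male was 0.653-fold, and with the pairs crossed the TiO2-H male over Sham female ratio was 0.589-fold.

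Of the 15 measured signalling genes downstream of the channel, 5 were non-overlapping higher and 3 lower, with a median of 0.053. Camk2a, the calcium-dependent kinase that docks on GluN2B, gave 190 and 223 in Sham and 270 and 257 in TiO2-H, which made the log2 ratio 0.41 for the pair labelled male and 0.075 for the pair labelled female. Its mean difference was 0.24 (SE 0.11; limma adjusted p = 0.417). This gene had its lowest value on the Sham male array. So did the probes of Grin1, Grin2c, Grin2d and Grin3a, the brighter Grin2a probe and the dimmer Grin2b probe. The dimmer Grin2a, the brighter Grin2b and the Grin3b probes did not.

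Genes of co-agonist supply had a median of -0.021 over 7 measured genes, 2 non-overlapping in each direction. Srr, the serine racemase that makes D-serine, gave 2590 and 2493 in Sham and 2828 and 2980 in TiO2-H, log2 ratios of 0.028 and 0.13 (limma adjusted p = 0.506). Dao, which degrades D-serine, was well above background on 2 of the 4 arrays, those labelled male, with processed signals of 48.0 in Sham and 63.7 in TiO2-H, and no fold is given against the other 2.

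The 6 genes of receptor trafficking had a median of 0.015, with 3 non-overlapping higher and 2 lower. The 6 reelin and ephrin receptor genes had a median of 0.0089, with 1 higher and 0 lower. Reln, the secreted protein whose signalling is known to act on NMDA receptors, gave 296 and 278 in Sham and 299 and 330 in TiO2-H, log2 ratios of -0.081 and 0.11 (limma adjusted p = 0.915).

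**Figure D4:**
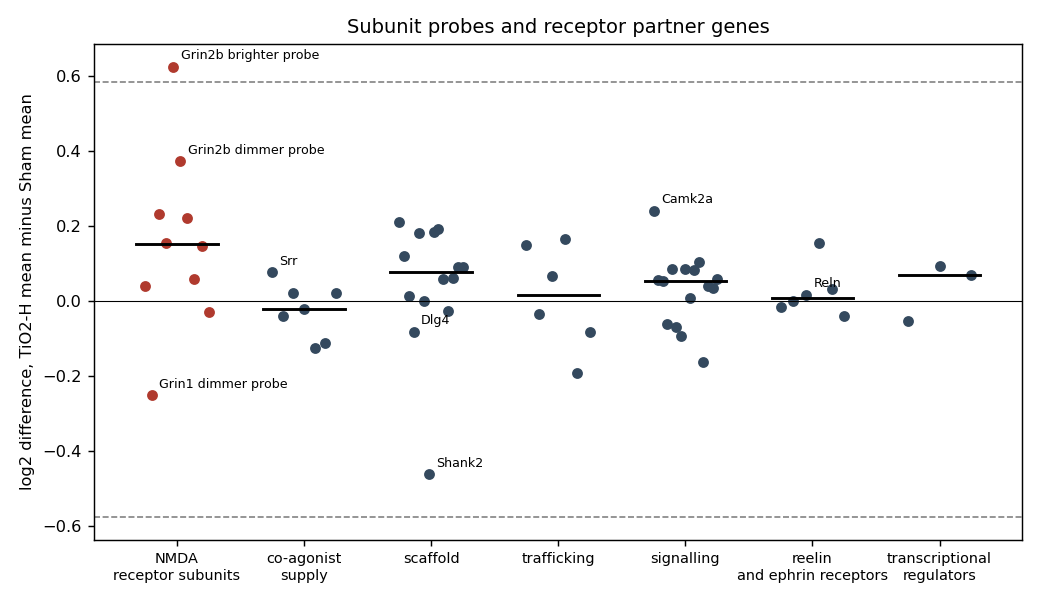
Log2 difference of the TiO2-H mean minus the Sham mean (vertical axis) for the 10 subunit probes (red) and for the brightest probe of each measured partner gene (dark blue), by list; black lines are list medians and dashed lines 1.5-fold and 0.67-fold. The brighter Grin2b probe is beyond 1.5-fold, no partner is beyond either line, and the partner list medians lie between -0.021 and 0.076. The line of the subunits includes the Grin2b probes by which the family was chosen and is no contrast to the others.

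The probes outside the family whose 4 scaled log2 values, centered on their own mean, lay nearest to those of the brighter Grin2b probe were sought among 29392 probes by Euclidean distance over the 4 arrays. The nearest were those of Ushbp1 (distance 0.044), Olfr173 (0.0999), Zfp971 (0.108), Dse (0.109) and Ndst4 (0.114). Of these, Olfr173 had processed signals of 365 and 354 in Sham and 636 and 579 in TiO2-H, whereas the signals of the other 4 were between 47.6 and 92.7. The dimmer Grin2b probe was at a distance of 0.312. Of all 29392 probes, named or not, 733 (2.49%) were closer to the brighter one than it was.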

How the data were processed

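The authors hybridized 1 RNA pool per group to Agilent SurePrint G3 Mouse 8x60K one-color arrays and deposited the Feature Extraction (version 10.10.1.1) scanner output and a value table, both as intensity. The deposited intensity used here is the processed signal, which that software corrected for local background without scaling between arrays, and the value table held the same intensity on all 4 arrays.

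From these, signals were put on the log2 scale and centered on the 75th percentile of the 59305 non-control spots of their array. Outlier spots were left out and spots of a probe averaged. A dim probe took the array's smallest signal well above background (23.3 to 31.7), or its own signal if higher. A ratio needed 1 of its 2 arrays, and limma 1 of the 4 arrays, well above background. Thresholds were 1.5-fold and 0.67-fold. The TiO2-H and Sham arrays were compared with limma 3.58.1 (R 4.3.3, Benjamini-Hochberg adjustment over 35618 probes), with no covariate. Other steps used Python 3.11.15, numpy 2.4.6, pandas 2.3.3 and matplotlib 3.10.9. The limma fit and the 1.5-fold threshold were tested on simulated data.

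The number of arrays limits the precision. Probes spotted 10 times had a median SD of 0.0622 to 0.0666 in log2 within an array. Accessions were named through a RefSeq table of GRCm38.p6, which held 98.0% of the 21887 NM and NR accessions. No probe positions are given, since the annotation of the array predates that build. The probes carry no sequence in the tables used here.

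The members, lists and tests were chosen with earlier results of these data known. All members are named. Of the partners, Dlg4, Camk2a, Srr and Reln are always named, together with any past a threshold on either pair. Shank2 and Dao were named after their values were seen. The list of transcriptional regulators is not reported here on its own. The alternatives included unscaled signals, quantile normalization, the value table, no floor or 1 floor, other filters, outlier spots kept, normexp with an offset of 50 on the median signals, 2-fold and 0.5-fold thresholds, crossed pairs, sex as a term, and each array left out.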

Additional observations from a re-analysis of the deposited data

Results flagged for a closer look

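For 5 of the named items, the ratio of TiO2-H over Sham went up on one pair of arrays and down on the other. With 1 pool per group the difference between the pairs was not tested, and the sex labels of the TiO2-H arrays go against their sex-linked RNAs, so it cannot be read as a difference between males and females. The log2 ratio on the arrays labelled female minus that on the arrays labelled male was -0.82 for the dimmer Grin1 probe, -0.60 for the brighter Grin2a probe and -0.095 for the brighter Grin1 probe. It was 0.059 for Grin3b and 0.19 for Reln. For Grin1 brighter and Grin3b one of the ratios was close to 0 (-0.0067 and 0.00056).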

How the results depend on the processing

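The brighter Grin2b probe was higher on both TiO2-H arrays under every setting of the signals tried, with a mean log2 difference of 0.63, of 0.62 to 0.63 with each array left out in turn, of 0.56 with normexp on the median signals and of 0.74 without scaling. Without scaling the median of all probes was 0.115 (log2) higher in TiO2-H, so the unscaled values are read against that shift. The dimmer Grin2b probe gave 0.37, 0.27 to 0.48 with each array left out, and 0.49 without scaling. On the arrays labelled male, 2 member probes reached 1.5-fold without scaling (the brighter probes of Grin2a and Grin2b), 0 with normexp and 0 reached 2-fold. On the arrays labelled female 0 reached 2-fold, and the Grin1 call at or below 0.67-fold was lost (count 0) without scaling, with normexp and at 0.5-fold. Partner genes past a threshold, 0 otherwise, were 1 down on the arrays labelled male with quantile normalization (Shank2), 1 down for the crossed TiO2-H female over Sham male (Dao), and 1 up and 1 down for the crossed TiO2-H male over Sham female (Dao and Shank2). Of the Grin1 dimmer probe, the mean difference ran from -0.65 to 0.15 with each array left out, and of the Grin2a brighter probe from 0.036 to 0.43. Over 16 limma settings, sex as a term among them, no probe passed an adjusted p of 0.05 (lowest adjusted p 0.112 to 0.531), with 2982 to 8306 probes at an unadjusted p under 0.05. The labels carry no replicate numbers. With sex as labelled as a term, which pairs the pools by sex label, 0 probes passed (lowest adjusted p 0.492), and with sex crossed within TiO2-H 0 passed (0.531). No mean difference of a Grin2b probe changed direction. Leaving out an array could not have changed it, since on both probes each TiO2-H array lay above each Sham array. The gene was chosen for that, so this is no contrast to the other members. The mean difference of the dimmer Grin1 probe turned from -0.25 to 0.15 without Sham female. That of the brighter Grin2a probe turned to -0.029 with normexp, and that of the dimmer Grin2a probe to -0.00086 without Sham female. That of Grin3b turned from -0.029 to 0.030 with normexp, 0.086 without scaling, 0.062 without Sham female and 0.092 without TiO2-H male. Dao passed thresholds in opposite directions in the crossed pairs, each time against an array where it was not well above background. In all, 115 of 129 comparisons of main values or counts with an alternative stayed within 1.5 times the count or within the spread between pools. For the member probes, the value table, the floors, the filters and the outlier spots could not change a value. The count of 115 therefore overstates what was varied. What limits every value is that each group is 1 pool on 1 array.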
